A study of Mus musculus with 6 samples.

Results

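miR-103 and miR-107 are a pair of near-identical microRNAs (miRNAs) that lie inside genes for pantothenate kinases, the enzymes of the committed step of coenzyme A synthesis. Agilent miRNA arrays with a single dye, Cy3, read them in MCT, a line of renal tubular cells from mice of SJL H-2S background. One group was exposed for 72 hours to 3 ng/ml of TGFβ, transforming growth factor beta (3 arrays, TGFβ 1 to 3), and the other received none (3 arrays, controls 1 to 3). Per the labels' protocols, both groups grew in 10% fetal calf serum and stood in 0.5% serum from the day before treatment, and each array took 100 ng of RNA. The array entries named mmu-miR-103 and mmu-miR-107 were taken, 2 of 611 mouse miRNA entries, and they are read by 4 of 1759 probes and 40 of 12220 mouse spots per array. Nothing in the labels says that replicates came from separate cultures, and p-values cover only the spread between these arrays, part or all of which may be technical.

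A mature miRNA guides the Argonaute protein to messenger RNAs that pair with its seed, bases 2 to 8 from its 5′ end, and represses them. miR-103 and miR-107 are excised from introns of pantothenate kinase genes. They are known to repress Dicer, the enzyme that makes mature miRNAs, in human breast cancer cells, and caveolin-1, a regulator of insulin signalling, in mouse fat cells. miR-103 is also used as a reference miRNA in PCR assays. In the kidney, TGFβ is best known as a driver of scarring.

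The mature sequences show how little separates the members. Capitals mark the seed, which both share.
miR-103: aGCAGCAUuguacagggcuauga
miR-107: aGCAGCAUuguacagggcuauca
The strands are 23 bases long and identical at 22 positions. The 1 difference is G22C, with the miR-103 base first and positions counted from 1 at the 5′ end, so it lies outside the seed. Sequences are from RefSeq on build GRCm38.p6, where both members matched, and no other mature mouse miRNA of the 1679 names listed there has the seed GCAGCAU. Bases 1 to 7 of both members, AGCAGCA, are the seed of most of the miR-15/16 family (not of miR-503), shown here for a pair of its members with bases 2 to 8 in capitals.
miR-15b: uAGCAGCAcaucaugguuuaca
miR-16: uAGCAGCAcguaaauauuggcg

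miR-103 comes from 2 loci and miR-107 from 1. The hairpin precursors are shown because they place each member in its host gene, with the measured 3′ arm in capitals.
Mir103-1: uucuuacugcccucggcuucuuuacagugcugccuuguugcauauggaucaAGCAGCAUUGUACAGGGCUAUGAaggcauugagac
Mir103-2: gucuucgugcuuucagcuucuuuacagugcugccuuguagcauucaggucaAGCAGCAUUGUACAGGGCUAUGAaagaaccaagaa
Mir107: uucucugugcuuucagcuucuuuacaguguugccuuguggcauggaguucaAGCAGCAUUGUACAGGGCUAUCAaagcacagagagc
On GRCm38.p6, Mir103-1 lies at chr11:35782396-35782481 on the plus strand, inside the span of Pank3. Mir103-2 lies at chr2:131288052-131288137 on the plus strand, inside the span of Pank2. Mir107 lies at chr19:34820687-34820773 on the minus strand, inside the span of Pank1. In each hairpin the arm occupies positions 52 to 74. An array reading of miR-103 cannot be split between Mir103-1 and Mir103-2, since their mature arms are the same. No array entry was matched to the 5′ arm of any of these hairpins (0 of 7 names searched).

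Both miRNAs were well above background on all 6 arrays. As deposited, before any scaling between arrays, miR-103 read 161, 189.9 and 133 intensity units on TGFβ 1 to 3, against 143, 151 and 140.2 on controls 1 to 3 (mean of its probes). The TGFβ arrays spread on both sides of the controls, with TGFβ 2 the highest and TGFβ 3 the lowest of the 6. miR-107 read 79.8, 95.5 and 73.3 units on TGFβ 1 to 3, against 78.3, 82.4 and 81.8 units on controls 1 to 3. Again TGFβ 2 was highest and TGFβ 3 lowest, and the groups overlapped. The lowest and highest deposited levels differed 1.43-fold for miR-103 and 1.30-fold for miR-107. Among the 70 miRNAs well above background on every array, the SD over 6 arrays of the unscaled log2 signal was smaller than that of miR-103 (0.18) for 12 and smaller than that of miR-107 (0.13) for 5, with a median of 0.28.

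Scaling each array to its 75th percentile changed this order. On the log2 scale, miR-103 then read 7.17, 7.27 and 7.0013 on TGFβ 1 to 3, against 7.0015, 7.52 and 7.52 on controls 1 to 3. Controls 2 and 3 lay above all TGFβ arrays, while control 1 lay level with TGFβ 3, the lowest of them. miR-107 read 6.16, 6.28 and 6.14 on TGFβ 1 to 3, against 6.14, 6.65 and 6.74 on controls 1 to 3. Here control 1 was the lowest of the 6, just below TGFβ 3, and controls 2 and 3 were the highest. After scaling the SD over 6 arrays was 0.24 for miR-103 and 0.27 for miR-107, against a median of 0.30 over the 70 miRNAs.

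**Figure D1:**
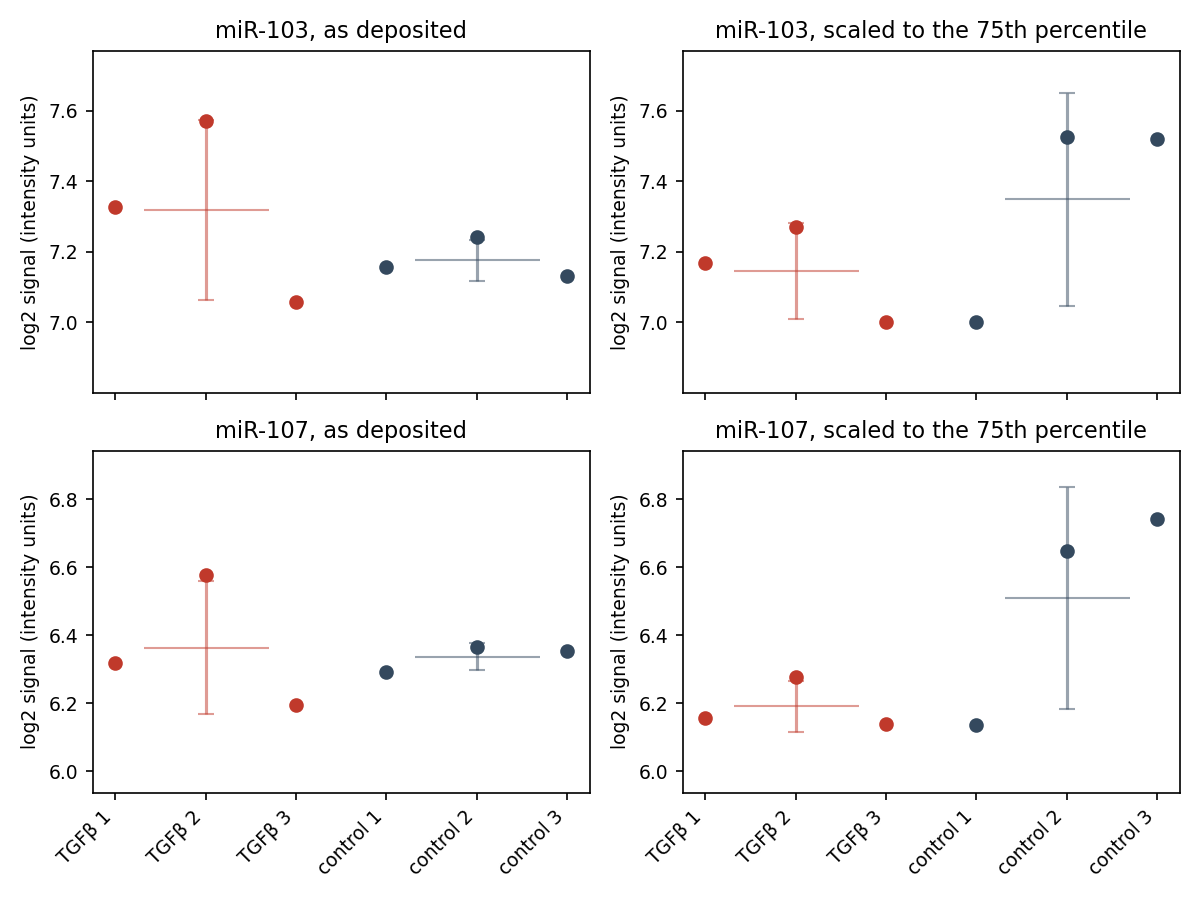
Log2 signal (intensity units) of miR-103 (top) and miR-107 (bottom) on each array, as deposited (left) and scaled to the 75th percentile (right); TGFβ arrays are red, controls dark, and bars are group means ± SD (n = 3 each). In the scaled panels controls 2 and 3 stand above the other 4 arrays, and control 1 sits level with TGFβ 3 at 7.0015 for miR-103 and 6.14 for miR-107.

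The test asked whether TGFβ altered either member. After scaling miR-103 averaged 7.15 ± 0.14 in TGFβ-treated cells and 7.35 ± 0.30 in control cells (SD, n = 3 each), which put TGFβ minus control at -0.20 log2 units (SE 0.20, limma adjusted p = 0.564). Its 95% interval was -0.69 to 0.28, or 0.622 to 1.21 times the control level. miR-107 averaged 6.19 ± 0.08 in TGFβ-treated cells and 6.51 ± 0.33 in control cells (SD, n = 3 each), which put TGFβ minus control at -0.32 log2 units (SE 0.20, limma adjusted p = 0.433). Its 95% interval was -0.80 to 0.17, or 0.572 to 1.12 times the control level. Neither member passed the adjusted threshold of 0.05, and in limma 0 of the 84 tested miRNAs did (0% called). At an unadjusted p under 0.05 there were 8 (9.52%), neither member among them. With the replicate number as a block the count past the adjusted threshold was 1, which was neither member.

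The groups overlapped for both members, whereas 12 of 84 miRNAs (14.3%) had groups that did not. Absolute log2 differences smaller than that of miR-103 were found for 28 of the 84 miRNAs and smaller than that of miR-107 for 46, and the median absolute difference was 0.29. The median signed difference over the 84 was -0.09, so relative to it miR-103 stood at -0.11 and miR-107 at -0.23. Without scaling, the median over all tested miRNAs moved to 0.26 and the differences turned to 0.14 (SE 0.18) for miR-103 and 0.027 (SE 0.16) for miR-107. In 29 of 29 alternative fits both members lay below the median of all tested miRNAs, by 0.36 to 0.019 log2 units for miR-103 and by 0.44 to 0.075 for miR-107. These fits reuse the same arrays and are not independent. Those that only rescale whole arrays shift all miRNAs alike and had to repeat -0.11 and -0.23, as did the other floor, the robust variance and the replicate block. The tally is therefore no added support.

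**Figure D2:**
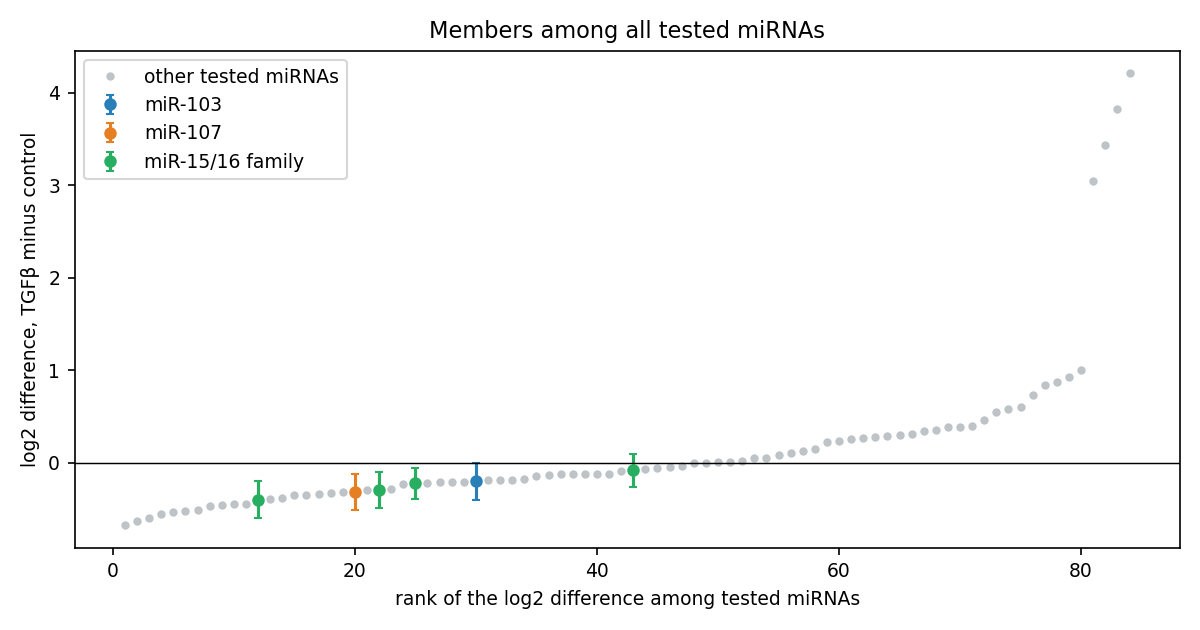
Log2 difference (TGFβ minus control) of the 84 tested miRNAs in order of size, with miR-103, miR-107 and the 4 tested miR-15/16 family members in colour with their SE. The coloured points lie between -0.40 and -0.08, within the dense middle and lower part of the ranking.

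The scaling was tied to miR-103 itself. The percentile is read as the signal of 1 of the 105 probes well above background on every array, the 79th from the dimmest. On controls 2 and 3 that probe was the brighter miR-103 probe, A_54_P1341, whose signals of 269 and 249 units are the percentiles of those arrays. On the other arrays probes of miR-93, miR-106b, miR-23a and let-7g held that place, and A_54_P1341 ranked 69, 71 and 68 on TGFβ 1 to 3 and 69 on control 1. The percentile was 365, 402 and 339.9 units on TGFβ 1 to 3, against 364, 269 and 249 units on controls 1 to 3. The equal scaled readings of this probe on controls 2 and 3 are therefore fixed by construction and say nothing of replicate error. With the members' probes left out of the percentile, a setting chosen after the tie was seen, the difference was -0.22 (SE 0.21, limma adjusted p = 0.573) for miR-103 and -0.34 (SE 0.22, limma adjusted p = 0.467) for miR-107. With the geometric mean of the 105 probes in its place it was -0.16 (SE 0.18) and -0.28 (SE 0.19).

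**Figure D3:**
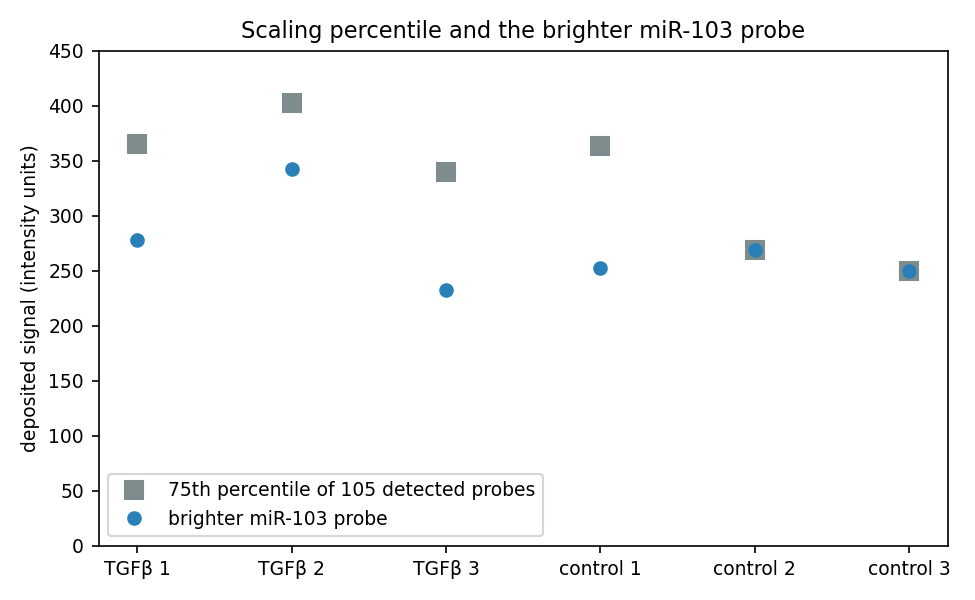
Deposited signal (intensity units) of the 75th percentile over 105 probes (squares) and of the brighter miR-103 probe (circles) on each array. Circle and square coincide at 269 on control 2 and 249 on control 3, while the circle lies below the square on control 1 and the TGFβ arrays.

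Each member is read by 2 probes of 10 spots, and the probes of a member differ in brightness. A_54_P1341 of miR-103 read 278 ± 22.7, 342 ± 54.8 and 232 ± 9.54 units on TGFβ 1 to 3, against 253 ± 48.3, 269 ± 18.7 and 249 ± 10.6 units on controls 1 to 3 (SD over 10 spots of 1 array). The SD over spots was largest on TGFβ 2 and control 1. A_54_P1342, the dimmer miR-103 probe, lay between 34.1 and 43.7 units on the TGFβ arrays and between 30.9 and 34.1 on the controls. It had 8 to 10 of its 10 spots well above background on each array.

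For miR-107, A_54_P1420 read 122 ± 7.33, 148 ± 11.0 and 109 ± 7.65 units on TGFβ 1 to 3, against 119 ± 14.1, 128 ± 10.0 and 124 ± 6.21 units on controls 1 to 3 (SD over 9 or 10 spots). A_54_P1421 lay between 37.2 and 43.3 units on the TGFβ arrays and between 36.4 and 39.2 on the controls, with an SD over spots of 3.31 to 8.47 units. The scaled log2 difference was -0.22 and -0.10 for the brighter and dimmer miR-103 probe, and -0.33 and -0.28 for the brighter and dimmer miR-107 probe. Unscaled, the same 4 probes gave 0.13, 0.24, 0.016 and 0.061. All 4 probes thus had the same sign within a scale and the opposite sign between scales. Because the members differ at 1 base, a probe of either may bind both, and how much each reads of the other was not tested.

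**Figure D4:**
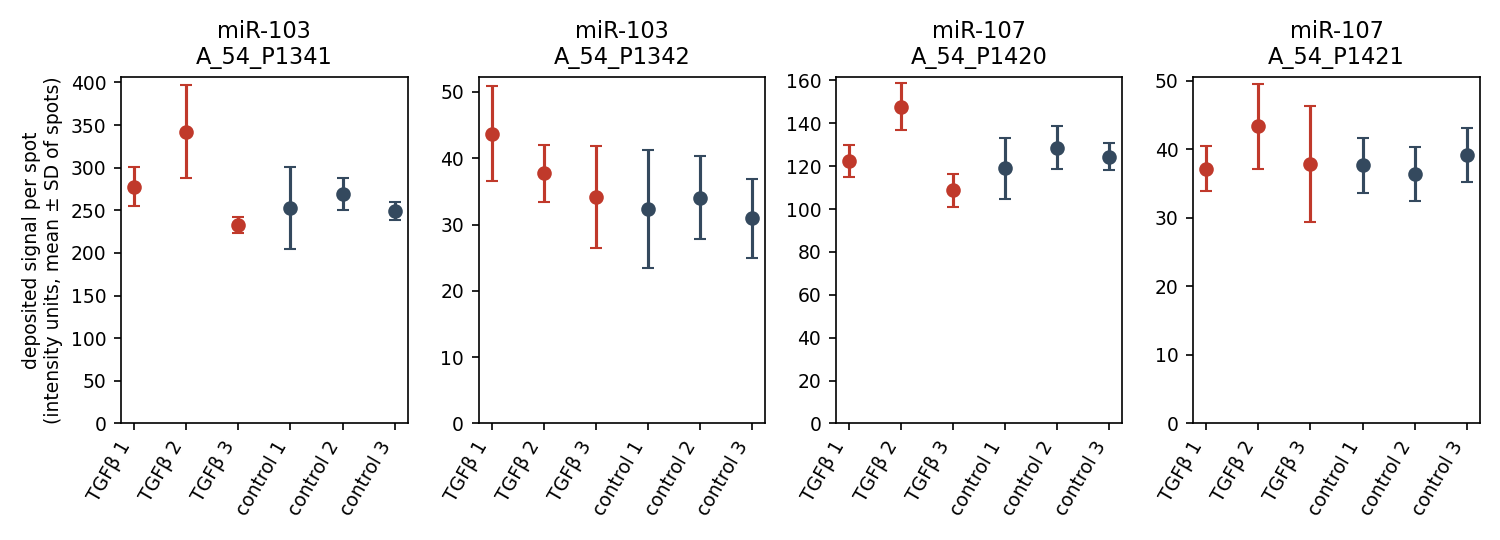
Deposited signal (intensity units, mean ± SD over the spots of 1 array) of the 4 probes on TGFβ arrays (red) and controls (dark), with the y axis of each panel starting at 0. The brighter probes of both members are highest on TGFβ 2 and lowest on TGFβ 3.

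The members moved together from array to array. The log2 signal of miR-107 minus that of miR-103, a quantity that scaling of whole arrays does not alter, was -1.01, -0.99 and -0.86 on TGFβ 1 to 3, against -0.86, -0.88 and -0.78 on controls 1 to 3. Its size depends on the probes and does not compare the amounts of the miRNAs. It averaged -0.95 ± 0.08 on TGFβ arrays and -0.84 ± 0.05 on controls (SD, n = 3 each), a difference of -0.115 (exact two-sided permutation test, p = 0.3, where 3 arrays against 3 cannot give less than 0.1). TGFβ 3 lay within the range of the controls. Within the replicate numbers 1, 2 and 3 TGFβ minus control was -0.145, -0.115 and -0.085, below 0 in 3 of 3 pairs (SD 0.030; exact two-sided sign-flip permutation test, p = 0.25, the smallest that 3 pairs can give). Within the slide columns it was -0.127 in column 1 and 0.014 in column 2. Neither test could pass 0.05 at this size. In 24 of 24 alternatives without blocks the difference was below 0, between -0.16 and -0.079, and its exact permutation p between 0.1 and 0.9. Alternatives that only rescale whole arrays, or change the filter or the floor, repeat -0.115, or -0.128 without control 1. They could not differ, so the tally is no added support.

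Likeness to other miRNAs was measured as the SD over the 6 arrays of the log2 difference from a member, among 69 others well above background on every array, where a small SD means a near-constant ratio. The closest to miR-103 were miR-24 of the miR-23/27/24 clusters (SD 0.073), let-7c (0.087), miR-107 (0.088), miR-16 of the family that shares the shifted seed (0.098) and let-7g (0.11), against a median SD of 0.25. The closest to miR-107 were miR-342-3p (SD 0.073), let-7g (0.087), miR-103 (0.088), miR-24 (0.097) and miR-196b of a Hox gene cluster (0.13), against a median of 0.27. Each member was thus among the 5 closest of the other. The scaled differences between TGFβ and control for these miRNAs were -0.23 for miR-24, -0.12 for let-7c, -0.08 for miR-16, -0.38 for let-7g, -0.30 for miR-342-3p and -0.19 for miR-196b, and none passed in limma. Without scaling, those of let-7c, miR-16, miR-24, miR-342-3p and miR-196b were above 0 and that of let-7g was not. With total gene signal let-7c, miR-16 and miR-196b were also above 0.

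Of the arrays left out singly, control 1 changed the comparison most. Without it the arrays of the groups did not overlap for either member, as was the case for 60 of 85 miRNAs (70.6%), of which 38 (44.7% of those tested) were lower in TGFβ-treated cells. miR-107 then fell, to 6.16 ± 0.07 in TGFβ-treated cells (SD, n = 3), against 6.67 ± 0.05 in controls 2 and 3 (SD, n = 2), or -0.51 log2 units (SE 0.11, limma adjusted p = 0.024) and 0.702 times the control level. miR-103 did not pass, with 7.11 ± 0.12 in TGFβ-treated cells (SD, n = 3) and 7.50 ± 0.02 in controls 2 and 3 (SD, n = 2), a difference of -0.38 (SE 0.12, limma adjusted p = 0.059). In this fit the brighter miR-103 probe lay only 0.0345 and 0.0158 log2 units above the percentile on controls 2 and 3. The SD of 0.02 is thus nearly set by the scaling and does not measure replicate error, and the SE and p-value rest on it in part. The miR-107 values were scaled by the same percentile, so their SD of 0.05 over 2 controls is tied to miR-103 as well. Among other miRNAs the SD over these 2 controls was 0.0014 for miR-15a and 0.22 for miR-18a. In that fit 31 of 85 miRNAs passed (36.5%), 20 of them lower (23.5%), so a call for 1 of 2 members lies near the share over all miRNAs. Control 1 is the control that reads like the TGFβ arrays, so leaving it out widens the differences, and the p-values do not allow for that choice.

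Calls for both members also came with array weights, where 53.6% of miRNAs passed. Without both control 1 and TGFβ 1, where 41.2% passed, miR-107 was called and miR-103 was not (limma adjusted p = 0.0676). The values without control 1 also depended on the scaling. Without control 1 and with the members' probes left out of the percentile, both members passed, with -0.43 (SE 0.11, limma adjusted p = 0.0409) for miR-103 and -0.55 (SE 0.10, limma adjusted p = 0.0147) for miR-107. In that fit 34 of all 85 tested miRNAs passed, so the calls are not particular to the members. With the geometric mean of detected probes neither member passed, with -0.29 (SE 0.13, limma adjusted p = 0.162) for miR-103 and -0.41 (SE 0.13, limma adjusted p = 0.0683) for miR-107, while 26 of 85 miRNAs did. Without any scaling the differences were 0.13 (SE 0.19) for miR-103 and 0.0041 (SE 0.17) for miR-107. Leaving out any other single array gave differences from -0.26 to -0.11 for miR-103 and from -0.36 to -0.20 for miR-107, and no call. The result also differed between slide columns. In slide column 1 TGFβ 2 minus control 1 was 0.27 for miR-103 and 0.14 for miR-107. In column 2 TGFβ 3 minus control 2 was -0.52 and -0.51. The column 1 pair holds control 1, so slide column and that array cannot be told apart here. TGFβ 1 minus control 1, from different columns, was 0.17 for miR-103 and 0.020 for miR-107. Columns 3 and 4 held 1 array each. With the column as a block the differences were -0.13 (SE 0.38, limma adjusted p = 0.941) for miR-103 and -0.18 (SE 0.37, limma adjusted p = 0.941) for miR-107. With the slide row as a block they were -0.18 (SE 0.30, limma adjusted p = 0.769) for miR-103 and -0.35 (SE 0.30, limma adjusted p = 0.547) for miR-107, which rests on TGFβ 1 alone for the treated cells, since row 2 held TGFβ arrays only.

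**Figure D5:**
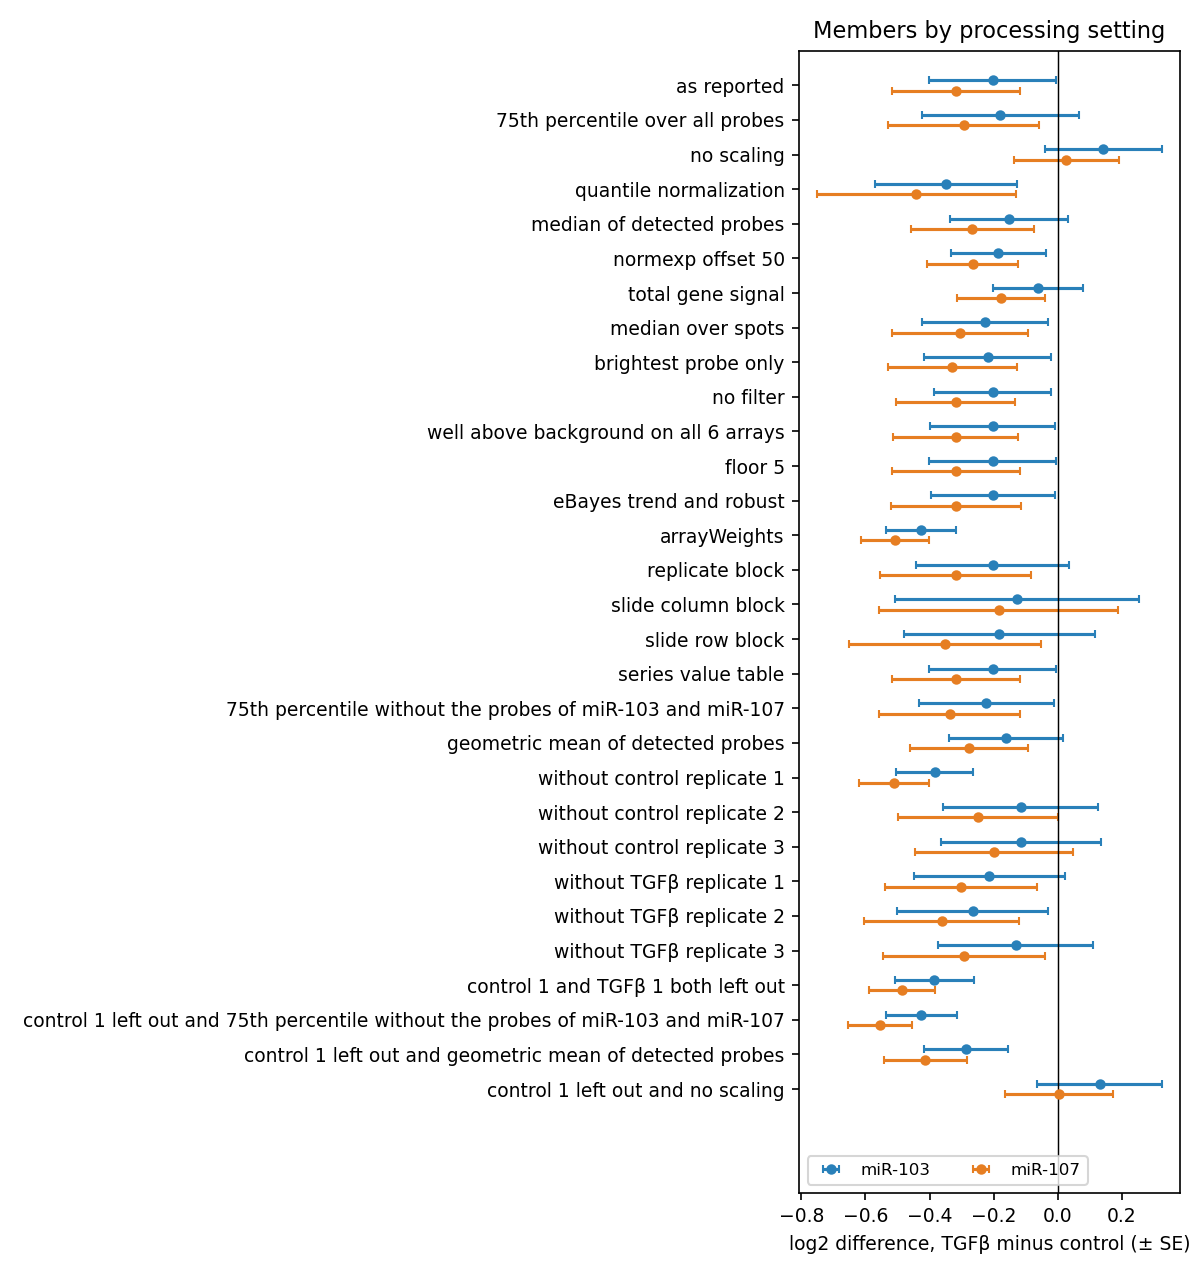
Log2 difference (TGFβ minus control, ± SE) of miR-103 (blue) and miR-107 (orange) under each processing setting, 1 row per setting. All points lie left of 0 except both members in the 2 settings without scaling.

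The miR-15/16 family, known to restrain the cell cycle, is the family whose seed, except in miR-503, overlaps that of the members. Of its 7 entries on the array, 4 were well above background on every array, and miR-195, miR-497 and miR-503 on none. All 4 tested members had differences below 0 (0 passed in limma), with a median of -0.26, against 49 of 84 below 0 (58.3%) and a median of -0.09 over all tested miRNAs. miR-15a read 7.61, 7.36 and 7.75 on TGFβ 1 to 3, against 7.66, 8.12 and 8.14 on controls 1 to 3, a difference of -0.40 (SE 0.20, limma adjusted p = 0.391). Its control 1 lay inside the range of the TGFβ arrays, while controls 2 and 3 lay above them. The differences were -0.30 for miR-15b, -0.23 for miR-322 and -0.08 for miR-16. Without scaling 3 of the 4 were above 0, with a median of 0.08 against 0.26 over all tested miRNAs. With total gene signal 1 of the 4 was above 0. Without control 1, 1 of 4 passed, miR-15a with -0.57 (SE 0.16, limma adjusted p = 0.0494), against 31 of 85 (36.5%) over all tested miRNAs.

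miRNAs that, like the members, lie in introns of protein-coding genes had 34 entries on the array and 14 tested, 3 with a higher and 11 with a lower value in TGFβ-treated cells and 0 passing, with a median of -0.19. Over all tested miRNAs 49 of 84 (58.3%) were lower, with a median of -0.09. The smallest p-values in this list were those of miR-98, from the Huwe1 gene (-0.53, SE 0.18, limma adjusted p = 0.391), and miR-25, from the Mcm7 gene (0.34, SE 0.13, limma adjusted p = 0.391). Unscaled, 11 of the 14 were above 0, with a median of 0.15 against 0.26 over all tested miRNAs. On that scale miR-98 kept a negative value (-0.19) and miR-25 a positive one (0.68). Without control 1, 5 of the 14 passed, all lower, and the median was -0.39. Over all tested miRNAs 31 of 85 (36.5%) passed in that fit, 20 of them lower, with a median of -0.09. The share of the list that passed thus lies near that over all miRNAs. Of 11 miRNAs used as references in PCR assays, 9 were tested, 2 with a higher and 7 with a lower value and 0 passing, with a median of -0.19, beside the same 58.3% lower over all tested miRNAs. The smallest p-values were those of miR-25 and miR-93 (0.45, SE 0.20, limma adjusted p = 0.391), both positive under each of the 7 scalings and background corrections compared. Without scaling 9 of the 9 were above 0, with a median of 0.16 against 0.26 over all tested miRNAs. Without control 1, 2 of the 9 passed, both lower, against 36.5% of all tested miRNAs, and the median was -0.24.

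As for the cells, 0 of 9 epithelial and tubule markers (the miR-200 family, miR-192, miR-194, miR-215 and miR-204) were well above background on any array, so the labelled tubular identity is not shown by these markers. The same held for 0 of 6 mesenchymal, 0 of 6 blood and 0 of 2 endothelial markers on the array. Between 86 and 103 miRNAs were well above background on TGFβ arrays, against 74 to 86 on controls.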

How the data were processed

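Per the file headers, the deposited values are spot intensity units from which Agilent Feature Extraction had subtracted background, version 10.7.3.1 (10.1.1 per the submitters' processing notes, left unresolved) and not scaled between arrays. The deposited series table held the same intensity values (largest difference 0). No spot was saturated. The other deposited columns used here were 0 or 1 flags, the median signals of spots and background, and the total gene signal of each miRNA.

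Spots marked as outliers were left out, spots averaged per probe and probes per miRNA. Scaling used the 75th percentile of the 105 probes that stood well above background on every array, with the percentiles' geometric mean as the common level. Values under 1 were set to 1 before log2. Probes needed the flag for well above background on 0.5 or more of their spots, and miRNAs on any probe. miRNAs well above background on all arrays of 1 group were tested (84), with limma 3.58.1 in R 4.3.3 (two-sided, Benjamini-Hochberg). The test was checked on simulated data. Figures used matplotlib 3.10.9.

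Same-numbered control and TGFβ arrays deviated together from their group means (r = 0.38, 0.37 and 0.52 over 84 miRNAs). The numbers were taken as pairs for this reason, from the data and not the labels. Control 2 and TGFβ 3, of different numbers, gave r = 0.385, above the 0.37 of control 2 with TGFβ 2. Deviations from a mean of 3 arrays are tied to each other, so these values do not settle the pairing. The number of arrays limits the precision.

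The members, lists and alternatives were chosen with earlier results of these data known. Named were both members, the tested miR-15/16 family, the 5 miRNAs most like each member, and the 2 smallest p-values of the intronic and reference lists. RefSeq sequences were matched by miRNA name. The array design's own probe sequences were not used here. Normexp used the median spot signal.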

Additional observations from a re-analysis of the deposited data

How the results depend on the processing

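The replicate block moved the count of passing miRNAs to 1 and changed no other call; it gave -0.20 (SE 0.24, limma adjusted p = 0.659) for miR-103 and -0.32 (SE 0.24, limma adjusted p = 0.485) for miR-107. Without scaling the differences were 0.14 for miR-103 and 0.027 for miR-107, and with control 1 also left out 0.13 and 0.0041. Within slide column 1 they were 0.27 and 0.14, within replicate number 1 0.17 and 0.020. For miR-103 slide column 2 gave -0.52 and replicate number 3 gave -0.52. Array weights gave -0.43 (limma adjusted p = 0.0165) for miR-103 and -0.51 (limma adjusted p = 0.00992) for miR-107, with weights of 0.144 on control 1, 3.71 on control 2 and 3.08 on control 3; the estimation of the weights stopped before it converged. With control 1 and TGFβ 1 both left out miR-107 was at -0.49 (limma adjusted p = 0.0229) and miR-103 at -0.39 (limma adjusted p = 0.0676). With control 1 left out and the members' probes out of the percentile the values were -0.43 and -0.55. Leaving out each array in turn gave -0.38 to -0.11 for miR-103 and -0.51 to -0.20 for miR-107. The number passing was 0 to 31 over these, 45 with array weights, 3 with the slide row as a block, 35 without control 1 and TGFβ 1, and 34, 26 and 20 without control 1 under the percentile without the members' probes, the geometric mean and no scaling. limma's adjusted p ranged over all fits from 0.0165 to 0.976 (miR-103) and from 0.00992 to 0.981 (miR-107). miR-107 minus miR-103 kept its direction in 24 of 24 alternatives without blocks, with the replicate block (-0.115), the slide column block (-0.056) and the slide row block (-0.17), and turned within slide column 2 (0.014). Many of the 24 only rescale whole arrays or change the filter or the floor, which cannot alter this difference. Array weights and the trended robust variance were not run for it, as it has no model fit. The settings with the members' probes left out, the geometric mean and the replicate pairs were chosen after the data were seen. The cause of these shifts was not tested.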
